A study of Mus musculus with 32 samples.

Results

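Ribosome assembly genes encode the factors that make and mature ribosomal RNA and build the 2 ribosomal subunits, and 41 of them were described here across 32 lymphomas of Eµ-myc mice. The genes were chosen by a list of symbols, and a gene was represented by the probe set that carried its symbol alone and had the highest mean. All 41 had such a probe set, and all 41 passed the filter on dim probe sets, which left 11228 genes in all. Members were bright on the array, so the filter removed none of them: their mean levels lay at a median percentile of 94.6 among all probe sets, with Noc3l lowest at 79.2.

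Total RNA of each tumour had been hybridised to 1 Affymetrix mouse expression array, and the deposited values are log2 expression per probe set. All tumours carried the Eµ-myc transgene, in which an immunoglobulin enhancer drives Myc in the B cell lineage. The labels give no treatment, no age and no second group, so no groups were compared and members were related to levels measured in the same tumours. The protocol covers lymphoma tissue as well as lymphoma cells without saying which tumour was which, and the labels do not say that each tumour came from its own mouse, so the p-values measure the spread between these samples. Transcripts of the transgene and of the endogenous Myc gene were not told apart.

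Ribosome assembly begins in the nucleolus, where RNA polymerase I transcribes a long precursor that is cut, chemically modified and folded with ribosomal proteins into the small and the large subunit. Myc is known as a transcription factor that binds the E-box CACGTG with its partner Max, and genes of ribosome assembly are among its best known targets. Early small subunit factors gather on the precursor in the processome, late ones escort the particle to the cytoplasm, and large subunit factors act on a separate particle.

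The promoters of 6 members are shown because Myc is known to bind the E-box near transcript starts, which makes its place in these genes of interest beside their relation to Myc. Each run covers 250 bases before to 50 bases after the transcript start in RefSeq, build GRCm38.p6, 5′ to 3′ on the strand of the gene, with CACGTG in capitals. Wdr43 (chr17:71615965-71616264, plus strand), Utp18 (chr11:93885717-93886016, minus strand), Ltv1 (chr10:13193088-13193387, minus strand) and Nop2 (chr6:125131633-125131932, plus strand) hold a match. Wdr3 (chr3:100162358-100162657, minus strand) and Ddx21 (chr10:62602249-62602548, minus strand) had steep slopes on Myc and hold none in this window.
Wdr43: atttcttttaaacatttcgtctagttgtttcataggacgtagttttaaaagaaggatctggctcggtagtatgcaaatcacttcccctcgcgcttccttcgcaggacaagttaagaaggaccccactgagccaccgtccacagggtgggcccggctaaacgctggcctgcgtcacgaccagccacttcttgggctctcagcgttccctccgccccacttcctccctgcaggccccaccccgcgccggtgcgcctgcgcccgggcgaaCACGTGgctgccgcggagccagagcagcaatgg
Utp18: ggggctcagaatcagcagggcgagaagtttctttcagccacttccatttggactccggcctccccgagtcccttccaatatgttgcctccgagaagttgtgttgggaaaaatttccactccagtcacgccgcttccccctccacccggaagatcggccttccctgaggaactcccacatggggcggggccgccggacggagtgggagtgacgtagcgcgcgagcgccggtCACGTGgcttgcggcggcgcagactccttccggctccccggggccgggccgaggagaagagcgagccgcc
Ltv1: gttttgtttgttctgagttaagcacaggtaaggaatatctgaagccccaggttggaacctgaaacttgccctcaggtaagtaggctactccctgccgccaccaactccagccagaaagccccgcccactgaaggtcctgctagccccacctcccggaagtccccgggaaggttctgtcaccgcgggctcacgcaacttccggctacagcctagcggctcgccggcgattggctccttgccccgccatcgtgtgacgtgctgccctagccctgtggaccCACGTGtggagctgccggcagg
Nop2: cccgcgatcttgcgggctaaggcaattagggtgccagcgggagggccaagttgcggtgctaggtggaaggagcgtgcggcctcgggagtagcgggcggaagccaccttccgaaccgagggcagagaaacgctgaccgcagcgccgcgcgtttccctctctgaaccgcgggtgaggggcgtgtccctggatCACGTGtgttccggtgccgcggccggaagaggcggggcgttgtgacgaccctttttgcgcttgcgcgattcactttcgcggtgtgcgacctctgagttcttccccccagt
Wdr3: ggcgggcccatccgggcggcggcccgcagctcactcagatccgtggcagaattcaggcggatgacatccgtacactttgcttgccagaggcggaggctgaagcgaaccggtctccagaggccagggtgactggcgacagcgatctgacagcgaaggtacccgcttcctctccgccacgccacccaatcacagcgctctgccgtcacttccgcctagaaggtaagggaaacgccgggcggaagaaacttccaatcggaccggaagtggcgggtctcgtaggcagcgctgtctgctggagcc
Ddx21: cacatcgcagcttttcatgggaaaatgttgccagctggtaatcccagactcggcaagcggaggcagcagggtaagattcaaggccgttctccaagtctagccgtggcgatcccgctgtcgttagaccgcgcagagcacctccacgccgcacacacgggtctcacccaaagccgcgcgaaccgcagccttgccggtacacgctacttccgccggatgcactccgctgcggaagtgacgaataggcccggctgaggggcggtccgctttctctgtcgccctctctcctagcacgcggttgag
The match starts 17 bases after the start base in Wdr43, 28 after it in Ltv1, 20 before it in Utp18 and 60 before it in Nop2.

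A RefSeq window was found for 35 of the 41 members, and none was at hand for Fbl, Npm1, Bop1, Gnl2, Rrp12 and Rrs1. CACGTG, which reads the same on both strands, was present in 8 of the 35 (22.9%), against 11.8% of the tested genes with a window and 7.15% of all 32851 windows. The other 4 were Pes1, Utp20, Mybbp1a and Tsr1. CACGCG, read on both strands as CACGCG or CGCGTG and counted where it overlapped another motif too, was present in 10 of the 35 (28.6%), against 19.9% of the tested genes and 9.27% of all windows. Of the members that rose with Myc in all tumours, 2 of 19 with a window held CACGTG, and of the members that were not called 6 of 16 did. A match describes letters only and says nothing of binding.

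Myc itself had a mean level of 11.34 ± 0.50 (SD, n = 32) on the log2 scale. The tumour titled D2 had the lowest level, 9.81, then D9 with 10.39 and D24 with 10.55, while D7 had the highest, 12.30. The log2 of the summed level of 10 T cell markers was 12.65 in D2 and 13.27 in D24. In the other 30 tumours it ran from 9.04 to 11.67, with a median of 9.64. D2 and D24 were left out in a second fit of every relation to Myc, as the plan of the description asked. Among the T cell markers Cd3d, Cd3e, Cd3g, Cd4, Icos, Lat and Thy1 passed the filter. Cd8a, Cd8b1 and Cd28 were dim, and entered this sum but not the T cell score used below. Of the 8 listed markers of the B lineage 7 were measured. The log2 of their summed level was 13.54 in D2 and 13.24 in D24, against 13.50 to 14.32 in the other 30. In bulk RNA fewer cells of a type and less RNA per cell cannot be told apart.

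Members were low together in several tumours, most of all in D24 and D25. In D24 all 41 lay below their own median, 34 were among the 4 lowest of 32 tumours, and 11 were lowest of all. In D25 all 41 lay below their median too, and in D15 40 did. D9 and D12 had 37 each below, D2 and D30 had 35 each, and D8 and D31 had 34 each. Wdr3 and Gnl3 were lowest of all tumours in D2. D7, the tumour with the most Myc, had 1 member below its median and was the highest tumour for 11 members. Myc was not low in every tumour with low members: D30 ranked 29 from the lowest in Myc. The median deviation of members from their own medians was -0.51 in D24, -0.40 in D25, -0.31 in D30, -0.28 in D15, -0.22 in D9 and D8, and 0.24 in D7. Genes at large were low in D24 too. There the median deviation of a chromosome's genes from their own means lay between -0.17 and -0.03, below 0 on every chromosome. In D25 it ran from -0.09 to 0.04. The counts given here for members were not taken over all genes.

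RNA of salivary gland was present in some tumours. Bpifa2, a salivary gland secretory gene, lay between 12.97 and 14.26 in 11 tumours, D9, D25 and D30 among them, and between 3.59 and 5.19 in the other 21. Members tended to be lower in those 11 tumours. A median of 31 members lay below their own median there, against 13 in the other 21. This count was not taken over all genes, so it cannot be called particular to members. By chromosome, the median deviation of all genes was mostly below 0 in D9 and D25 and mostly above 0 in D3 and D4. The median deviation of members centred on -0.08 (range -0.40 to 0.07) in the 11 and on 0.05 (range -0.51 to 0.24) in the other 21, so the ranges overlap. With Bpifa2 as a covariate, 19 members rose with Myc over 32 tumours, against 9.68% of all genes, and 7 over 30, against 0.659%. D24, with the lowest members, had a Bpifa2 level of 3.66. The part of salivary gland RNA in the low levels was not tested further.

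**Figure D1:**
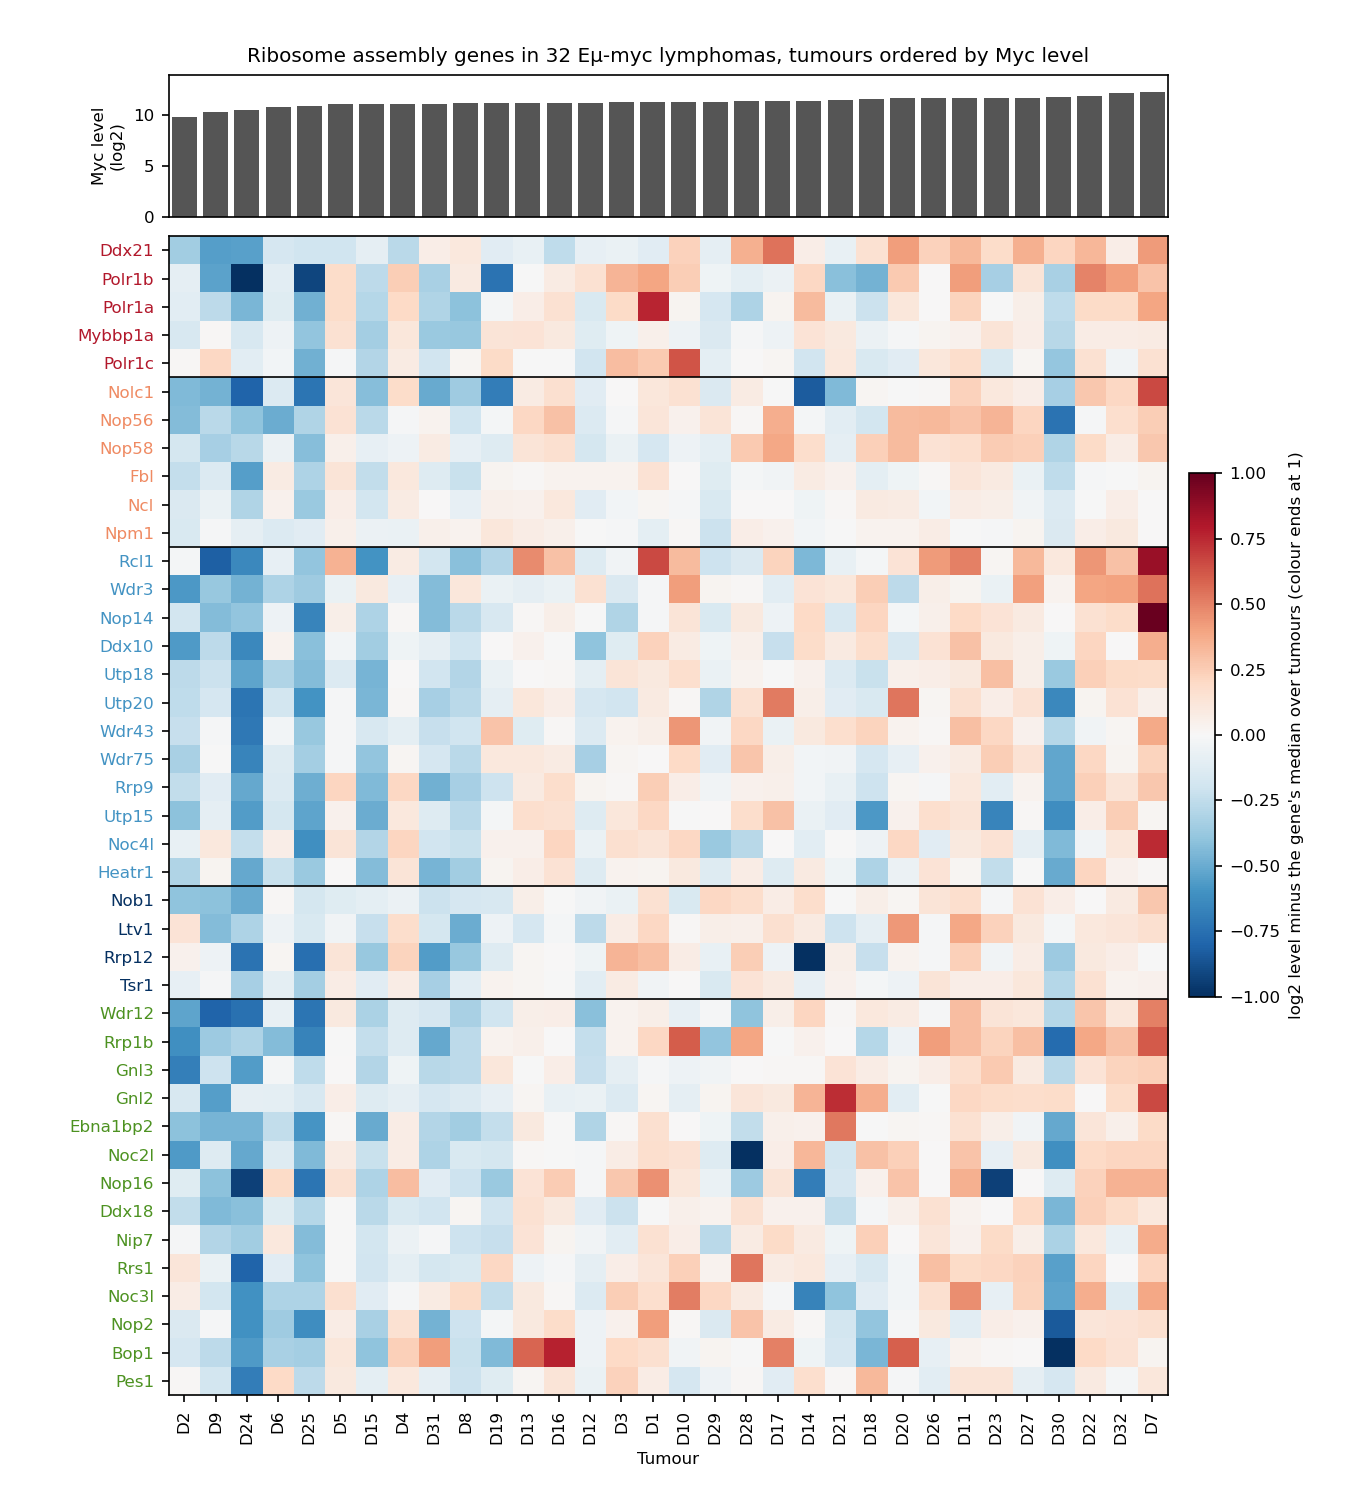
Each row is a member and each column a tumour, ordered by Myc level (bars, log2). Colour gives the log2 level minus the gene's median over the 32 tumours, and the label colours mark the roles, with RNA polymerase I at the top and the large subunit at the bottom. D24 and D25 are blue for all 41 members, D30 for 35, and D7 is red for nearly all.

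Members varied slightly less than other genes, by description. The median SD over tumours was 0.25 for members and 0.28 for all tested genes, and 12 of 41 lay above the latter value. Npm1 (nucleophosmin), an abundant nucleolar chaperone, varied least, with an SD of 0.08, and Polr1b and Rcl1 varied most, with 0.39 each. For reference, the hybridisation control with the largest spread had an SD of 0.20 on these arrays.

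Members rose and fell together across tumours. Over the 820 pairs of members the median Pearson r was 0.55, with 518 pairs above 0.5 and 4 below 0. Without D2 and D24 the median was 0.50, with 8 pairs below 0. These are descriptions with no test. Each tumour had its own array, and the 3′ minus 5′ difference of the RNA quality controls ran from 0.26 to 0.96. The part of array and RNA quality in the shared movement was not tested. Utp18, a WD-repeat protein of the small subunit processome, followed the mean of the other members most closely (r = 0.89), and Gnl2, a GTPase of large subunit maturation, least (r = 0.41). The closest pair was Nop2 and Rrp9 (r = 0.88), and Bop1 with Gnl2 was the most opposed (r = -0.05). The first principal component held 55.9% of the members' standardised variance, and all 41 loadings had the same sign. The second held 8.37%, with Gnl2, Nob1, Wdr3 and Ddx21 at the positive end and Polr1c, Utp15, Nop2 and Rrp12 at the negative end.

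Across all 32 tumours 20 of 41 members rose with Myc and none fell, at an adjusted p under 0.05 in limma, against 10.4% of all genes rising and 9.67% falling. The median slope, the log2 change of a gene per log2 unit of Myc, was 0.23 for members and 0.03 for all genes tested. All 41 slopes were above 0 in this fit. Under other settings 5 of them turned negative without being called, Polr1c when arrays were shifted by reference genes or quantile normalised again and with either the other-cell or the proliferation covariate, and in 1 of the 32 fits without a single tumour, Pes1 with the mean of its probe sets, Bop1 with the proliferation covariate, and Nop2 and Rrs1 with the other-cell covariate. Without D2 and D24, 14 of 41 rose and none fell, against 2.06% of all genes rising and 1.62% falling, and the median slope was 0.24. Of the 20 members called over 32 tumours, 13 were called over 30 too, and Ltv1 was called over 30 tumours only.

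The number of calls in the smaller fit depended on a few tumours. Leaving out D9 left 3 of 41 members called over 30 tumours, against 0.151% of all genes rising, and leaving out D7 left 5, against 0.294%. The slopes moved less than the calls. Their median was 0.24 without D9, with all 41 above 0, and 0.23 without D7, with 40 above 0. With neither left out it was 0.24. Leaving out D30 gave 18, against 4.56%. D11, D25 and D27 left 8 each and D22 left 9, against 1.07% to 1.37% of all genes. Nop14, Wdr3 and Ddx21 were called in every one of these refits. D9 also had the highest Bpifa2 level, 14.26, and the highest 3′ minus 5′ difference of the RNA quality controls, 0.96; the part of either in the calls was not tested. Over 32 tumours the count ranged from 16 without D7 or D24 (7.66% and 6.24% of all genes rising) to 27 without D30 (13.8%), and 15 of the 20 calls held whichever tumour was left out.

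T cell markers moved with Myc as well. The Pearson r of Myc with the T cell score was -0.70 over 32 tumours (permutation p = 4e-05, adjusted over 3 relations 0.00012). Spearman rho was -0.52 (permutation p = 0.00291). Over 30 tumours r was -0.50 (permutation p = 0.0052, adjusted 0.0156) and rho was -0.41 (permutation p = 0.0248, adjusted 0.0514). Without D7 and D2, the tumours farthest from the Myc median, r was -0.58. Also among the 3 relations were Myc with the other-cell score and with the proliferation score, both defined below. Over 32 tumours r was -0.54 (permutation p = 0.00202) and 0.30 (permutation p = 0.0948). Over 30 it was -0.30 (permutation p = 0.111) and 0.05 (permutation p = 0.773). With the T cell score as a covariate, 0 of 41 members and 23 of all 11227 genes were called by limma over 32 tumours, while all 41 slopes stayed above 0 with a median of 0.19. At an unadjusted p under 0.05 the same fit gave 19 members, against 11.04% of all genes. Over 30 tumours the same covariate left 4 members called, Nop14, Wdr12, Gnl2 and Ddx21, against 0.196% of all genes rising, and a median slope of 0.25. The part of T cell RNA in the members' slopes was not tested further.

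**Figure D2:**
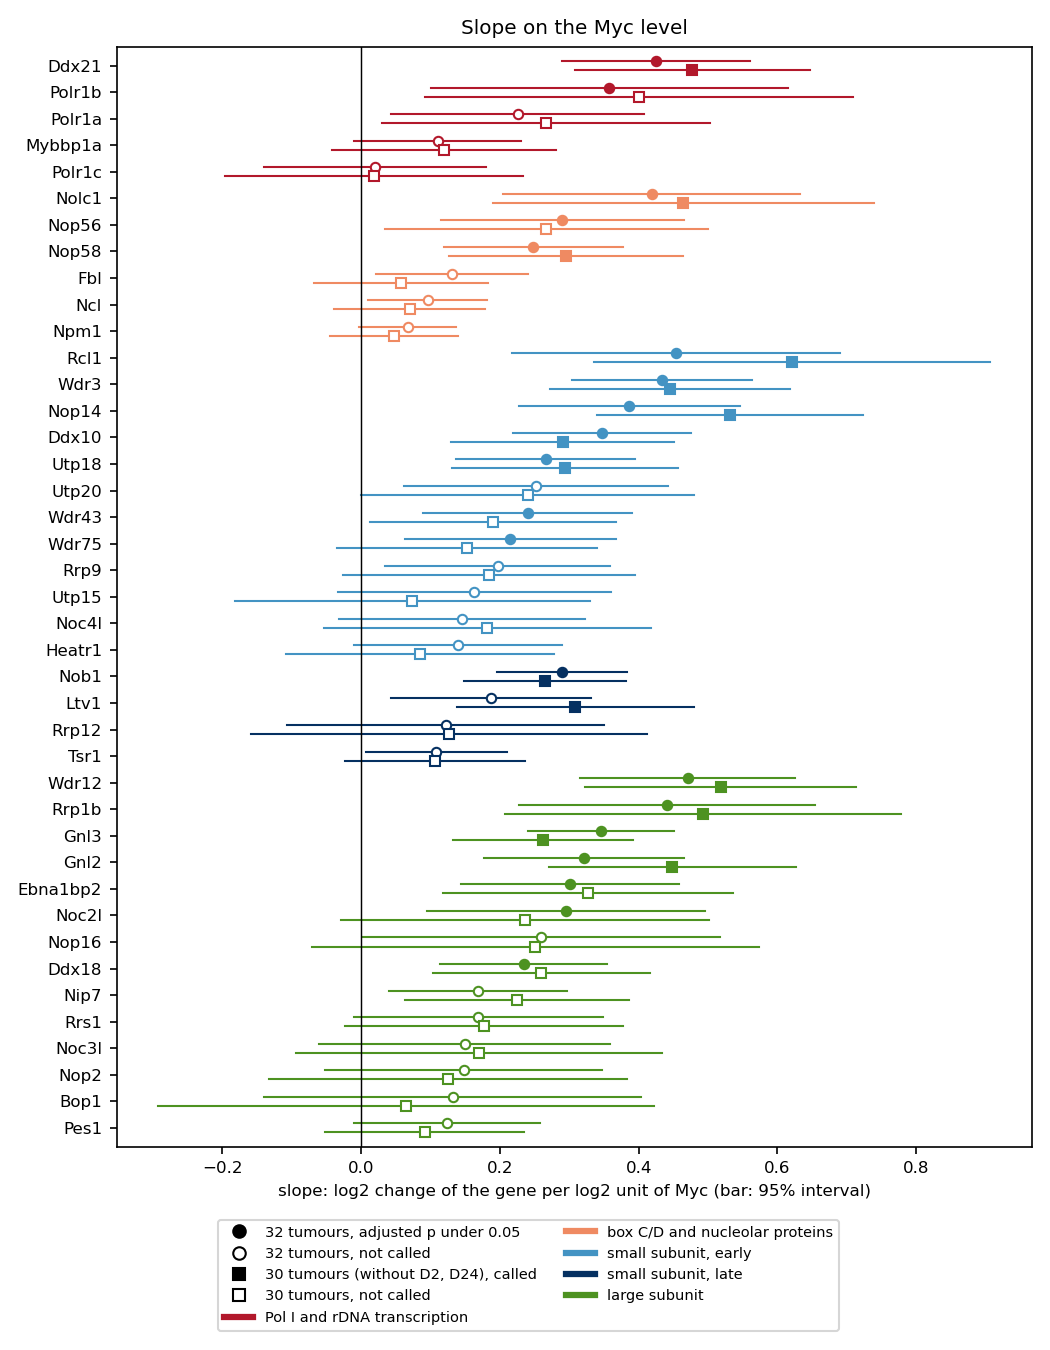
Points are limma slopes of each member on Myc (log2 per log2 unit) and bars their 95% intervals, circles for 32 tumours and squares for 30 without D2 and D24, filled where the adjusted p is under 0.05. Slopes run between 0.02 for Polr1c and 0.47 for Wdr12 over 32 tumours, and lie above 0 in both sets for all 41.

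Among the RNA polymerase I genes 2 of 5 rose with Myc over 32 tumours. Ddx21, an RNA helicase that couples polymerase I transcription with precursor processing, had levels of 10.38, 10.93 and 11.47 (lowest, median and highest tumour). It rose by 0.42 ± 0.067 per unit of Myc (slope ± SE, adjusted p = 0.000118) and by 0.48 ± 0.083 without D2 and D24 (adjusted p = 0.00217). D9 was its lowest tumour and D24 the next, and a second Ddx21 probe set had a slope of 0.08 that was not called (adjusted p = 0.611). Polr1b, the second largest subunit, reached 8.20 in D24, with a median of 9.26 and 9.76 in the highest tumour. Its slope of 0.36 was called over 32 tumours (adjusted p = 0.0427) but over 30 was 0.40 with an adjusted p of 0.125, and 9 of 32 single tumours ended the call when left out. Polr1a, the largest subunit, had slopes of 0.23 (adjusted p = 0.072) over 32 tumours and 0.27 (adjusted p = 0.186) over 30. Another Polr1a probe set, tested separately, rose by 0.28 over 32 tumours (adjusted p = 0.0036) and by 0.39 over 30 (adjusted p = 0.0119). It correlated with the first at 0.24, and a further passing one was not called (adjusted p = 0.0637 and 0.139). Polr1c, a subunit shared with RNA polymerase III, had 9.59, 10.08 and 10.70 as lowest, median and highest level and a slope of 0.02 (95% interval -0.14 to 0.18). A second Polr1c probe set, tested separately, had a slope of 0.13 that was not called (adjusted p = 0.24). Mybbp1a, a nucleolar binding partner of Myb, had a slope of 0.11 at its brightest probe set, and 0.32 at its other one (adjusted p = 0.00945, each probe set tested).

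Of the box C/D and nucleolar proteins 3 of 6 rose over 32 tumours and 2 over 30. Nolc1, a chaperone of small nucleolar particles, had levels of 9.94, 10.77 and 11.43 and a slope of 0.42 ± 0.105 (adjusted p = 0.00576). Nop56 and Nop58 are core proteins of the box C/D particles that guide methylation of ribosomal RNA. Nop58 rose by 0.25 over 32 tumours and by 0.30 over 30 (adjusted p = 0.0404), and Nop56 rose by 0.29 over 32 tumours, a call that was lost without D2 (adjusted p = 0.0632). Fbl, the methyltransferase of the same particles, had a slope of 0.13 (adjusted p = 0.0822). Ncl (nucleolin) had 0.10 and Npm1 0.07, both not called. Further probe sets disagreed with these. A second Fbl probe set had a slope of 0.20 and 2 of the 3 further Ncl probe sets had 0.27 and 0.19, all called over 32 tumours, while the remaining Ncl probe set had 0.04 (adjusted p = 0.927). Over 30 tumours the probe set with 0.27 was called again, at 0.38 (adjusted p = 0.0267), and the others were not, with adjusted p of 0.222 for Fbl and of 0.346 and 0.9 for Ncl. A second Npm1 probe set rose by 0.18 over 32 tumours (adjusted p = 0.0322, each probe set tested). It was not called over 30 (slope 0.23, adjusted p = 0.100).

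Of the early small subunit factors 7 of 12 rose over 32 tumours and 5 over 30. Wdr3, a WD-repeat protein of the processome, had levels of 10.61, 11.19 and 11.73. Its slope of 0.43 ± 0.064 (adjusted p = 6.58e-05) was the largest relative to its error among members, and over 30 tumours it was 0.44 ± 0.085 (adjusted p = 0.00496). D2, D24 and D31 were its lowest tumours and D7 its highest. Nop14, a processome scaffold protein, had levels of 8.63, 9.29 and 10.28, the last in D7, where the next tumour reached 9.50. Its slopes were 0.39 over 32 tumours and 0.53 over 30 (adjusted p = 0.00226), and it remained called without D7 at 0.29 over 32. Rcl1, related to RNA cyclases and needed for small subunit maturation in yeast, spanned 9.24 to 10.92 and rose by 0.45 over 32 tumours and by 0.62 over 30 (adjusted p = 0.0135). Ddx10, a helicase of the processome in yeast, rose by 0.35 over 32 tumours and by 0.29 over 30, and Utp18 rose by 0.27 and by 0.29. Wdr43 and Wdr75 rose by 0.24 and 0.22 over 32 tumours but were not called over 30 (adjusted p = 0.21 and 0.36). Utp20, a large repeat protein, missed the threshold over 32 tumours (slope 0.25, adjusted p = 0.0528). Noc4l, Rrp9, Utp15 and Heatr1 had slopes between 0.14 and 0.20 that were not called. A second Heatr1 probe set had a slope of 0.45 (adjusted p = 0.00134, each probe set tested) and correlated with the first at only 0.06. Over 30 tumours it had a slope of 0.35 and was not called (adjusted p = 0.0989). A second Utp15 probe set rose by 0.24 over 32 tumours (adjusted p = 0.0226) and was not called over 30 (adjusted p = 0.257).

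Nob1, the endonuclease that makes the final cut at the end of small subunit rRNA, was the called gene of the late small subunit set over 32 tumours. Its levels were 9.57, 10.07 and 10.34, and its slope was 0.29 ± 0.046 (adjusted p = 0.000118). D24, D9 and D2 formed its low end. Over 30 tumours the slope was 0.27 ± 0.057 (adjusted p = 0.0106). Ltv1, an export factor, had a slope of 0.19 (adjusted p = 0.0586) over 32 tumours and rose by 0.31 over 30 (adjusted p = 0.0365); D2 had a Ltv1 level of 9.69, above the gene's median of 9.55. Rrp12 and Tsr1, which act in nuclear export and late maturation, had slopes of 0.12 and 0.11 and were not called. A second Tsr1 probe set, tested separately, rose by 0.23 over 32 tumours (adjusted p = 0.0065) and was not called over 30 (adjusted p = 0.0912).

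Large subunit factors rose in 7 of 14 cases over 32 tumours and in 4 over 30. Gnl3 (nucleostemin), a nucleolar GTPase, had levels of 10.97, 11.66 and 11.92, with D2 and D24 lowest at 10.97 and 11.10 against 11.36 in the lowest of the other 30. It rose by 0.35 ± 0.052 (adjusted p = 7.93e-05) and by 0.26 ± 0.063 over 30 (adjusted p = 0.0217). Wdr12, which works with Pes1 and Bop1 in 1 complex, had levels of 9.86, 10.66 and 11.17 and rose by 0.47 ± 0.076 (adjusted p = 0.000135), with D9, D24 and D25 lowest and D7 highest. Its partners were not called: the slope was 0.12 for Pes1 and 0.13 for Bop1, with 95% intervals of -0.01 to 0.26 and -0.14 to 0.40. The differences between these slopes were not tested. A second Bop1 probe set had a slope of 0.34 over 32 tumours (adjusted p = 0.0656, each probe set tested) and of 0.16 over 30 (adjusted p = 0.645). It correlated with the first at 0.26. Gnl2 rose by 0.32 over 32 tumours and by 0.45 over 30 (adjusted p = 0.00585), and Rrp1b by 0.44 and 0.49. Ebna1bp2, Ddx18 and Noc2l, factors of early large subunit assembly, rose by 0.30, 0.23 and 0.30 over 32 tumours and were not called over 30, where Ddx18 had an adjusted p of 0.0503. Nop2, a methyltransferase of large subunit RNA, Nop16, Noc3l, Nip7 and Rrs1 had slopes between 0.15 and 0.26 that were not called.

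**Figure D3:**
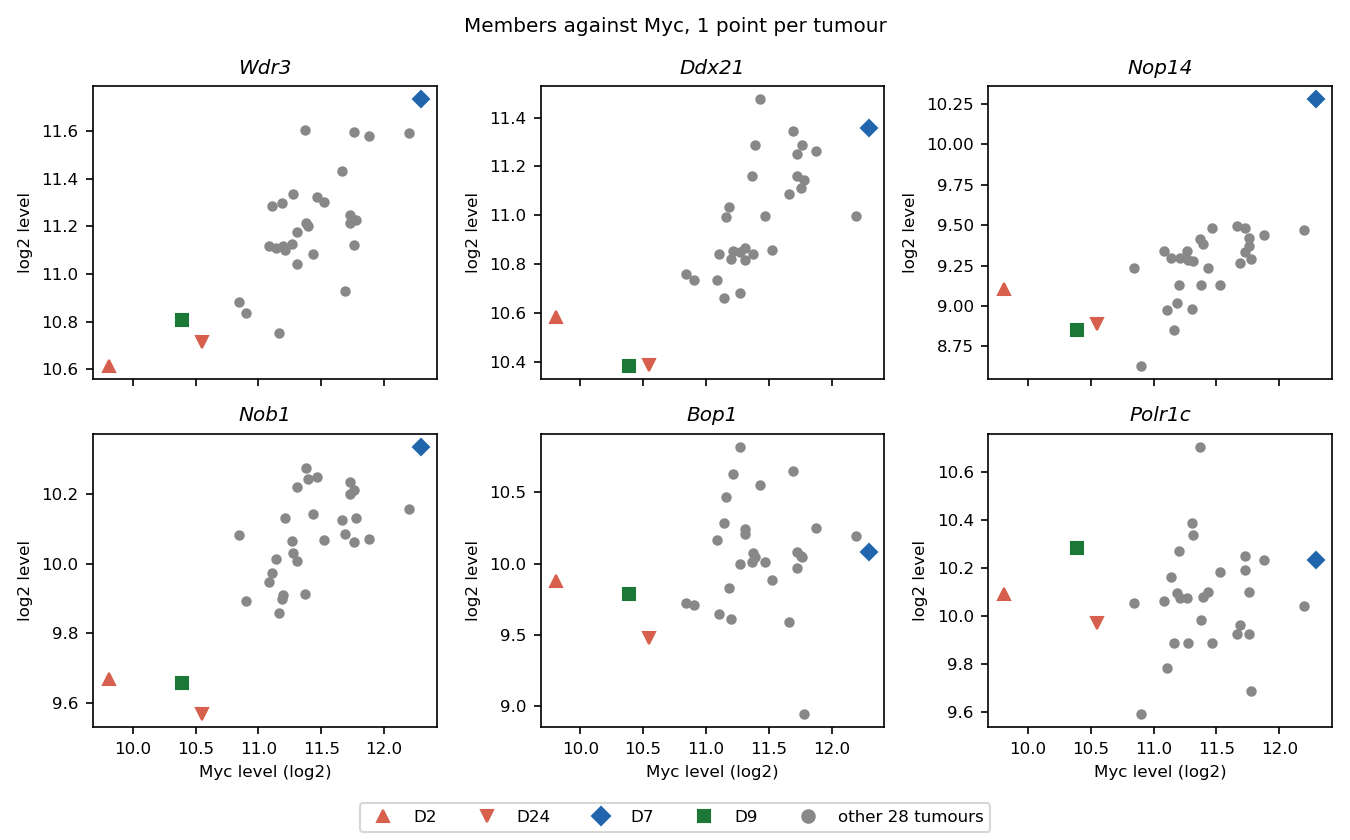
Each panel plots the log2 level of 1 member against Myc, 1 point per tumour, with D2, D24, D7 and D9 marked. Wdr3, Ddx21, Nop14 and Nob1 climb with Myc (slopes between 0.29 and 0.43), while Bop1 and Polr1c have slopes of 0.13 and 0.02.

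With each probe set tested separately, 39 of the 77 member probe sets that passed the filter rose over 32 tumours and none fell, against 10.6% of all probe sets rising and 7.72% falling. Over 30 tumours 18 rose and none fell, against 1.72% rising and 1.06% falling. Of the 41 members 28 (68.3%) had a rising probe set over 32 tumours, against 13.4% of all genes, and 15 (36.6%) had every passing probe set rising, against 6.82%. Among the 27 members with more than 1 passing probe set these were 20 (74.1%) and 7 (25.9%), against 19.9% and 4.56% of all such genes. Over 30 tumours none of the 27 had every probe set rising, against 0.454% of such genes, and 10 had at least 1, against 3.74%. The second probe sets of a member correlated with the first at a median of 0.65 (range 0.06 to 0.96), and 5 of 36 lay below 0.3, so a gene's call depends in part on the probe set. Nop56, Fbl, Wdr43, Noc4l, Polr1c and Tsr1 were represented by probe sets whose suffix marks shared probes, so signal from related transcripts was not told apart from theirs.

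Other genes of ribosome assembly were counted from lists of polymerase I, small subunit and large subunit factors chosen with results of these data known. Of the 112 with a passing probe set, 40 rose with Myc over 32 tumours and none fell, against 10.4% of all genes rising, and 101 had a slope above 0. Over 30 tumours 11 rose, against 2.06% of all genes. The steepest by test were Taf1c, a subunit of the polymerase I selectivity factor, Rsl1d1, Nifk, Rpf1, Znhit6 and Nsun5. Rsl1d1 rose by 0.44 over 32 tumours and by 0.56 over 30 (adjusted p = 0.00202), and Taf1c rose by 0.29 over 32 (adjusted p = 0.000154).

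Proliferation was a second axis, measured by the mean standardised level of 19 cell cycle genes, none of them a member. On this score 21 of 41 members rose and none fell, against 18.8% of all genes rising and 11% falling, and the median slope was 0.10 log2 units per SD of the score. Bop1, a large subunit factor, spanned 8.95 to 10.82 with a median of 10.05. D30 and D24 were its lowest tumours, and it rose by 0.26 per SD (adjusted p = 0.000185). Nop56 rose by 0.21, and Utp15 and Nop2 each by 0.17. Wdr3, Nop14, Ddx21 and Nob1, all called on Myc, had slopes of 0.04, 0.03, 0.07 and 0.06 and were not called here. Polr1b rose by 0.20 and Polr1a by 0.12. Of the 41 members 10 rose on both axes, 10 on Myc only, 11 on proliferation only and 10 on neither. Over all genes tested on both, these shares were 3.27%, 7.14%, 15.6% and 74.0%, and the split itself was not tested. The relation to proliferation rested on a few tumours. Without D2 and D24 the count fell to 5 (12.2%), below the 15.4% of all genes that rose. It was 8 (19.5%) without D30, against 13.3% of all genes, 9 (21.95%) without D24 alone, against 16.1%, and 26 without D31, against 20.5%.

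To compare the axes directly, Myc and proliferation entered 1 fit, each per SD, and the difference of their slopes was tested. It was above 0 in 5 members, against 4.06% of all genes, and below 0 in 1, against 7.08%. The 5 were Wdr3 (difference 0.25, adjusted p = 0.00309), Gnl2 (0.24, adjusted p = 0.00713), Nop14 (0.23, adjusted p = 0.021), Ddx21 (0.20, adjusted p = 0.0173) and Nob1 (0.12, adjusted p = 0.0338). The exception was Bop1, with a difference of -0.29 (adjusted p = 0.0238). Bop1 lies on chromosome 15, whose shift (defined below) had an r of 0.74 with Bop1 and of 0.48 with the proliferation score. Among the 5 above 0, the r with the shift of the own chromosome was 0.82 for Nop14 and 0.77 for Wdr3. It was 0.53 for Nob1, 0.39 for Ddx21 and 0.13 for Gnl2. The part of these shifts in the differences was not tested. For the other 35 the difference missed the threshold, which does not show that they follow both alike. The same 6 genes were called over 30 tumours, against 4.06% of all genes above 0 and 7.39% below, with Bop1 at -0.24 (adjusted p = 0.0331). In the joint fit over 32 tumours 15 members rose with Myc and none fell, against 7.71% of all genes rising and 7.91% falling. With proliferation 9 rose and none fell, against 16.5% rising and 8.94% falling. Over 30 tumours 15 rose with Myc, against 2.95% rising and 2.6% falling, and 7 with proliferation, against 15.7% rising and 8.79% falling.

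**Figure D4:**
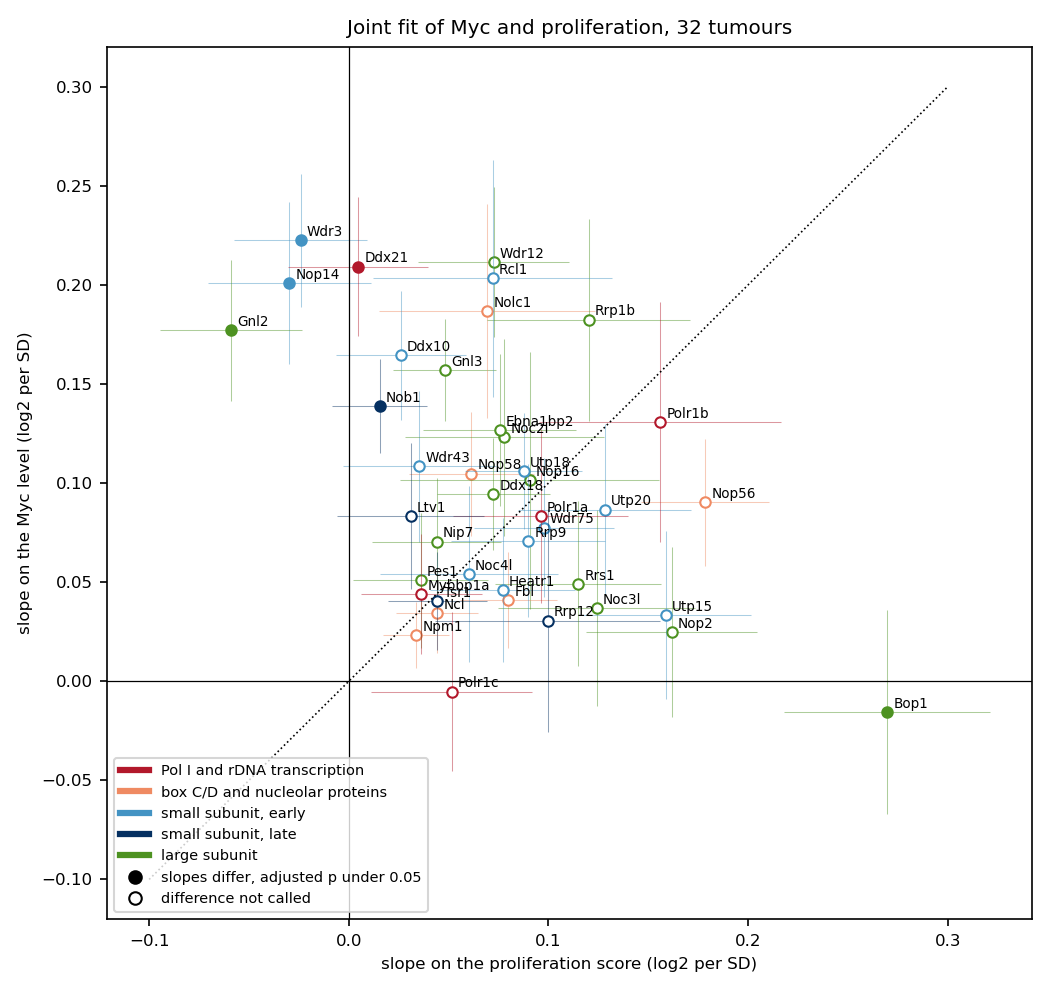
Each point is a member, with its slope on Myc against its slope on the proliferation score in the joint fit over 32 tumours (log2 per SD, bars are SE, dotted line marks equal slopes). Filled points have a tested difference between slopes: Wdr3, Nop14, Ddx21, Gnl2 and Nob1 lie above the line and Bop1 below it.

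Markers of cells other than the lymphoma (T cells, myeloid cells and stroma) gave a further score, the mean of their list scores. On it 24 of 41 members fell and none rose, against 14.3% of all genes falling and 13.8% rising. Rrs1, a factor of large subunit assembly, fell by 0.16 per SD (adjusted p = 0.00106), Gnl3 by 0.13 and Wdr43 by 0.14. Nop16, Bop1, Gnl2, Rcl1 and Ltv1 were among the 17 not called. Without D2 and D24 only 2 members (4.88%) fell, against 6.18% of all genes, and with Myc as a covariate 1 (2.44%) did, against 6.21%, so neither share exceeded that of all genes. The count was 10 without D24, against 8.54% of all genes, and 28 without D15, against 15.4%. Of the 20 members that rose with Myc over 32 tumours 15 fell on this score, and of all 1170 genes that rose with Myc 54.8% did. Those 15 were 62.5% of the 24 members that fell, and 40.1% of all genes that fell on the score rose with Myc.

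Some extreme levels went with the chromosome a member lies on. The shift of a chromosome in a tumour was the median deviation of its genes from their own means over the tumours. Past 0.2 in size, 20 pairs of a tumour and a chromosome held members, 17 of them upward and 3 downward. They covered 35 member values, of which 34 (97.1%) lay on the side of the shift and 17 (48.6%) were the most extreme of all 32 tumours on that side. The shift is itself a median over the chromosome's genes, so most genes lie on its side by construction. Over all genes of the same pairs 79.8% of 10557 values lay on that side and 16.1% were the most extreme.

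D14 had a shift of -0.56 on chromosome 19. Nolc1, Noc3l and Rrp12 were lowest of all tumours there, at 9.94, 7.44 and 7.51, while Rcl1 at 9.61 ranked 4 from the lowest. D23 had a shift of -0.39 on chromosome 13, with Nop16 (8.89) and Utp15 (8.57) lowest and Heatr1 at rank 9. In D28 chromosome 4 shifted by -0.28 and Noc2l, at 8.98, lay below the next tumour at 9.39, while Gnl2 ranked 23 and so lay above its median.

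Upward shifts held several highest tumours. D7 had 0.35 on chromosome 5, with Nop14 and Noc4l highest of all tumours. D1 had 0.28 on chromosome 6, with Nop2 and Polr1a highest, and D10 had 0.36 on chromosome 17, with Wdr43 and Polr1c highest. Bop1, on chromosome 15, ranked 28 to 32 in the 5 tumours with an upward shift of that chromosome, D16 highest at 10.82. Wdr3, on chromosome 3, ranked 22 to 32 in 7 such tumours. After subtraction of the own-chromosome shift, 22 members rose with Myc over 32 tumours, against 8.25% of all genes, and 16 over 30, against 1.86%, with Nop14 at 0.30 against 0.39 before it and Wdr3 at 0.30 against 0.43. As a description, the own chromosome was the one a gene followed most closely in 10 of 41 members (24.4%) and in 25.2% of all genes.

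**Figure D5:**
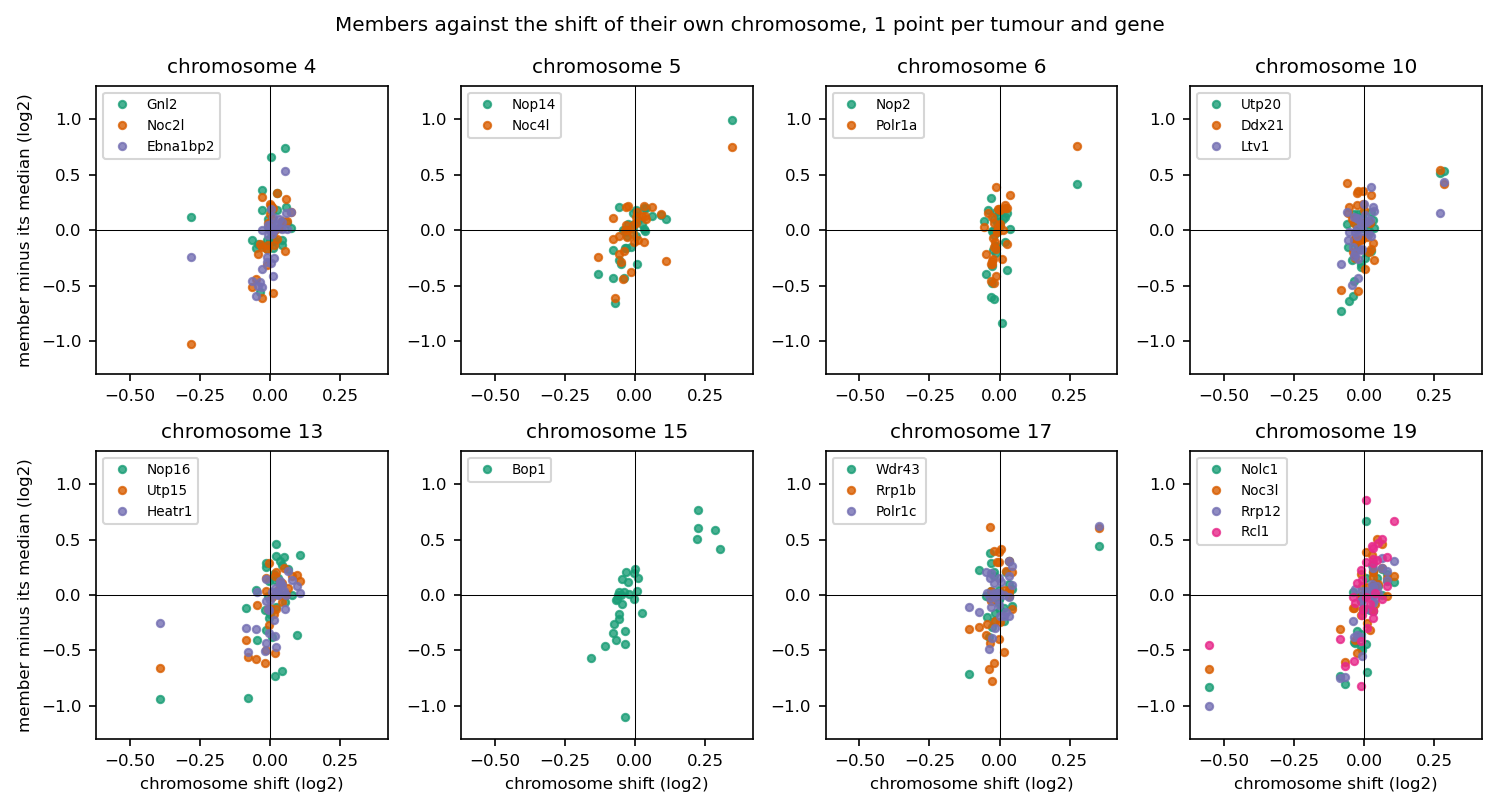
Each panel shows the members of 1 chromosome, as log2 level minus the gene's median, against the chromosome's shift (log2), 1 point per tumour and gene. The far left points of chromosomes 4, 13 and 19 are D28, D23 and D14, and the far right points of chromosomes 5, 6 and 17 are D7, D1 and D10.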

How the data were processed

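Total RNA of 32 Eµ-myc lymphomas was measured on Affymetrix Mouse430_2 arrays, 1 array per tumour. The authors deposited log2 values per probe set; the submitters' processing notes name RMA and affy. RMA equalises the distribution of all arrays, so a shift shared by most genes would not show. No version is given in the sources used here. No column was left over (0), and 0 pairs of arrays were identical.

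Of 45101 probe sets, 34958 carried 1 symbol in the platform annotation, 932 several and 9211 none; names came from the first kind only, and 41 members matched RefSeq of assembly GRCm38.p6. Dim probe sets, whose mean lay below the median over the whole array (5.78), were dropped, and the brightest per gene was used. Probe set levels were compared with each other for the filter, the brightest probe set per gene, the brightness percentiles and the marker sums. The number of arrays limits precision.

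Slopes were fitted over all genes with lmFit and eBayes in limma 3.58.1 (R 4.3.3), with Benjamini-Hochberg adjustment over all genes tested and calls at an adjusted p under 0.05; the axis genes were left out. Slopes on scores are per SD. The fit was tested on simulated data: over 32 tumours on the Myc axis it recovered 93% of genes with a slope of 1 gene SD and 15% with 0.5. Few genes carried a slope there, so these are not the rates of the data. Permutation tests drew 100000 two-sided resamples (Python 3.11.15, numpy 2.4.6). The joint fit, the T cell and chromosome 15 covariates, the own-chromosome subtraction and the separate test of each probe set were chosen after seeing the data. The members and lists were chosen with earlier results of these data known. Named were all 41 members, Myc, and the 6 other assembly genes with the largest rising test statistic on Myc, with any that fell; marker lists are given by their sums, and markers named individually only say which were measured. Alternatives and refits leaving out each tumour are in the closing section.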

Additional observations from a re-analysis of the deposited data

How the results depend on the processing

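Counts of members called moved by more than 1.5 times under these settings. Over 32 tumours, where 20 rose with Myc, the count was 9 with the other-cell score and 0 with the T cell score as covariate, and leaving out each tumour gave 16 to 27. Over 30 tumours, where 14 rose, it was 8 with a shift by reference genes, 8 after a second quantile normalisation, 8 with ranks of Myc, 7 each with the 3′ minus 5′ difference, Bpifa2 or the other-cell score as covariate, and 4 with the T cell score; leaving out each tumour gave 3 to 18. On proliferation, where 21 rose, it was 8 with the reference shift, 9 with ranks, 12 with Bpifa2, 3 with the other-cell score, 9 with Myc, 7 with the T cell score, 13 with the chromosome 15 shift, and 5 without D2 and D24; leaving out each tumour gave 8 to 26. On the other-cell score, where 24 fell, it was 10 with a filter at the 75th percentile, 14 with the reference shift, 13 with ranks, 6 with proliferation, 1 with Myc, 2 with the T cell score and 2 without D2 and D24; leaving out each tumour gave 10 to 28. In the settings just given, other than single tumours, the share of all genes called in the same direction was 0.107% to 2.03% on Myc over 32 tumours, 0.196% to 1.43% over 30, 11.4% to 17.2% on proliferation and 3.12% to 9.33% on the other-cell score. The cause of these moves was not tested. The other settings kept each count within 1.5 times.

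These slopes changed sign, and none of them was called under the setting that turned it. On Myc over 32 tumours Nop2 had -0.0068 and Rrs1 -0.013 with the other-cell covariate, Bop1 -0.031 with proliferation, Pes1 -0.11 with the mean of its probe sets, and Polr1c -0.013 with the reference shift, -0.010 after quantile normalisation, -0.024 with the other-cell score and -0.011 with proliferation. Over 30 tumours Bop1 had -0.056 with the 3′ minus 5′ difference, Pes1 -0.20 with the mean of its probe sets, and Polr1c -0.0056 with the reference shift, -0.016 after quantile normalisation, -0.045 with Bpifa2 and -0.0073 with the other-cell score. On proliferation, Nop14 had -0.049 with the other-cell score, -0.030 with Myc, -0.0016 without D2 and D24 and -0.026 with the T cell score; Wdr3 had -0.066, -0.024, -0.020 and -0.047 under the same settings; Wdr43 had -0.012, Ddx21 -0.0056 and Nob1 -0.0054 with the other-cell score; Ddx21 had -0.0024 and Nob1 -0.0050 with the T cell score; Gnl2 turned to 0.026 with the mean of its probe sets. On the other-cell score, Nop16 had 0.0032 with Myc, 0.020 without D2 and D24 and 0.043 with the T cell score; Bop1 had 0.034 with proliferation; Gnl2 had 0.022 with Myc; Ltv1 had 0.015 with Myc; and Rcl1 had 0.0027 with the 75th percentile filter, 0.0052 with proliferation, 0.075 with Myc and 0.096 with the T cell score.

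No paired analysis was possible because the labels give 1 group of tumours. With 32 arrays, slopes of 0.5 gene SD were mostly missed on simulated data (15% recovered on the Myc axis). Far fewer genes carried a slope there than the 2256 called on Myc in the data over 32 tumours. The adjusted threshold was therefore stricter in the simulation, and the 15% is not the rate of these fits. A missed threshold does not show that a member is unrelated to an axis.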
